A study of Homo sapiens with 44 samples.

Results

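Replication-dependent histone mRNAs were followed in 14 RNA sequencing libraries of human triple-negative breast cancer cell lines. The members were all genes whose symbol begins with HIST1H, HIST2H, HIST3H or HIST4H, which gave 73 of the 27315 symbols of the siEZH2 experiment. They comprise 6 linker histone genes (H1), 18 H2A, 20 H2B, 14 H3 and 15 H4 genes, of which 56 lie in the HIST1 cluster, 13 in HIST2, 3 in HIST3 and 1 in HIST4. In the siRel experiment 68 of them were found by Ensembl identifier among 58735 genes, and HIST1H3B, HIST1H3C, HIST2H2AA3, HIST2H2AA4 and HIST2H2BA were not matched. The members HIST1H2APS1, HIST2H2BA and HIST2H2BC are annotated as transcribed pseudogenes. One experiment compared SUM149 cells, an inflammatory breast cancer line, and MDA-MB-231 cells, each given siRNA to EZH2 (siEZH2) or control siRNA (siControl). The other compared MDA-MB-231 cells given siRNA to RelA (siRelA), siRNA to RelB (siRelB) or siControl. Each of the 7 groups held 2 libraries, described as biological duplicates, from cells transfected with 20 nM siRNA and labelled with 48 h, a time the labels qualify as holding unless stated otherwise. The knockdowns are transient, no siRNA sequence was used here, and the libraries of the experiments were made at different facilities, so the experiments are not compared by a test.

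Histones package DNA into nucleosomes: H2A, H2B, H3 and H4 form the core particle and H1 binds the linker DNA between particles. Replication-dependent histone genes are transcribed mainly in S phase, when new chromatin is built, from many near-duplicate genes in clusters where NPAT gathers the transcription machinery. Their mRNAs have no introns and normally no poly(A) tail: they end just after a conserved stem-loop that is bound by SLBP, and they are degraded quickly when DNA synthesis stops. EZH2 is the methyltransferase of Polycomb repressive complex 2, which modifies histone H3, and RelA and RelB belong to the NF-kB family of transcription factors.

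The feature that defines this kind of mRNA was present in nearly all members. A 16-base stem-loop was found in the transcripts of 71 of the 73 genes, the exceptions being the pseudogenes HIST2H2BA and HIST1H2APS1. All 73 have 1 exon in their main transcript (GENCODE 44 on GRCh38). The 5 sequences below belong to abundant members, 1 of each class, with the stem-loop in capitals and 5 bases of flank, 5′ to 3′ in the sense of the mRNA, written as DNA.
HIST1H1B: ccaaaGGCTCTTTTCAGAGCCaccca
HIST1H2AE: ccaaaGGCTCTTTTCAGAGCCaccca
HIST1H2BK: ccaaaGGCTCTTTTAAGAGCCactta
HIST1H3B: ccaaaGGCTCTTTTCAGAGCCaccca
HIST1H4C: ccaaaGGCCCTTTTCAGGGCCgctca
All 5 lie on chromosome 6 of GRCh38, near the 3′ end of the only exon: HIST1H1B at chr6:27866797-27866812 and HIST1H2BK at chr6:27146366-27146381 and HIST1H3B at chr6:26031597-26031612 on the minus strand, HIST1H2AE at chr6:26217417-26217432 and HIST1H4C at chr6:26104317-26104332 on the plus strand. The form in HIST1H1B, HIST1H2AE and HIST1H3B is shared by 40 members, that in HIST1H4C by 10 and that in HIST1H2BK by 10. For 58 members the annotated transcripts that hold the loop end within 20 bases past it, a median of 5 bases. In 13 members a transcript with the loop is annotated at least 100 bases past it. Of these 12 hold a poly(A) signal, AATAAA or ATTAAA, beyond the loop. HIST2H2BE, HIST1H2AC and HIST1H4H are examples of that longer form, with 1729, 1128 and 1655 annotated bases past the loop. Transcripts without the loop were not measured, so some of the 58 have longer annotated forms too. HIST1H2BD has a transcript of 789 bases beside its main one of 486, and HIST1H2BC 1 of 2548 beside 460.

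The siRNA targets fell in every library labelled for them. EZH2 had 442 and 517 normalised reads in SUM149 siEZH2 libraries, against 2563 and 2746 in SUM149 siControl (-2.003 ± 0.07, log2 difference ± SE, limma adjusted p = 4.81e-10). In MDA-MB-231 EZH2 had 368 and 298 normalised reads after siEZH2, against 3022 and 3019.7 in siControl (-2.52 ± 0.07, limma adjusted p = 5.49e-11). RELA had 265 and 275 counts in siRelA libraries, against 3562 and 3391 in siControl, and RELB had 90 and 107 counts in siRelB libraries, against 923 and 916 in siControl. RELB was also lower in siRelA libraries, at 377 and 295 counts. KRT5, a basal keratin listed as a SUM149 marker, had 1015 to 1949 normalised reads in the 4 SUM149 libraries and at most 1.9 in the 4 MDA-MB-231 libraries, and KRT17 and CDH3 were higher in SUM149 too. The mesenchymal markers CDH2 and VIM, listed for MDA-MB-231, went against their list: CDH2 had 5064 to 5559 normalised reads in SUM149 and 60.2 to 128.5 in MDA-MB-231, and VIM 62193 to 85203 in SUM149 and 33519 to 51272 in MDA-MB-231. The epithelial CDH1 went with its list at a low level, with 102 to 162 in SUM149 and 2.9 to 24.5 in MDA-MB-231. SPARC had 0 to 10.1 in SUM149 and 5.7 to 28.3 in MDA-MB-231, and KRT14 reached at most 4.1. EPCAM, also listed for SUM149, had 1594 and 1460 normalised reads in SUM149 siControl, against 1410.0 and 1297 in MDA-MB-231 siControl. After siEZH2 it went against its list, with 175 and 166 in SUM149 and 518 and 556 in MDA-MB-231. ZEB1, listed for MDA-MB-231, overlapped in siControl, at 1218.5 and 1259.5 in SUM149 against 1260.9 and 1197.7 in MDA-MB-231. MSN went with its list in siControl, at 18086 and 19985 in SUM149 against 23934 and 24861 in MDA-MB-231. ESR1 and PGR, the hormone receptors, had at most 3.4 normalised reads in the siEZH2 experiment and at most 20 counts in the siRel experiment, whereas ERBB2 was present in every library. Among haematopoietic markers CD3E was at 0 in all 14 libraries, PTPRC had at most 2.5 normalised reads or 4 counts, and CD14 was the only one tested. CD14 had 118 and 98.2 normalised reads in SUM149 siEZH2, against 39.3 and 21.5 in SUM149 siControl (0.57 ± 0.07, limma adjusted p = 1.51e-05), and 27.4 and 33.9 in MDA-MB-231 siEZH2, against 6.6 and 8.4 in its siControl (0.34 ± 0.07, limma adjusted p = 0.00117). Its part in the histone changes after siEZH2 was not tested, and it was not called after siRelA or siRelB.

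Read totals were 17.4 to 38.1 M per library in the siEZH2 experiment, as recovered from the deposited values, and 18.6 to 24.4 M in the siRel experiment. Of the 73 members, 9 were at the lowest value of the table in all 8 siEZH2 libraries (HIST1H2APS1, HIST1H4F, HIST2H2AA3, HIST2H2AA4, HIST2H3A, HIST2H3C, HIST2H4A, HIST2H4B and HIST3H3), and 64 had a read in at least 1. Of the 10 members that share at least 50% of their 50-base stretches with another member, 6 are among those 9, so for these near-identical genes a 0 is listed and not read as absence. In the siRel experiment 28 of 68 members had 0 counts in all 6 libraries, where a count of 0 allows a share of up to 0.123 to 0.161 reads per M reads (RPM) depending on the library. The filters on low values left 59 members in the siEZH2 fit of 12356 genes and 19 in the siRel fit of 15930 genes. Counts below refer to these tested members, and a member that passed only because it is high in 1 line is named as such.

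The share of all reads that came from histone genes was largest in SUM149 cells and lower after siEZH2 in both lines. In SUM149 the members took 8805 and 8900.2 RPM after siEZH2, against 11461 and 10525 in siControl. The means were 8852 ± 67.5 and 10993 ± 662 (SD, n = 2), a ratio of 0.805. In MDA-MB-231 they took 4839.6 and 5507 RPM after siEZH2, against 6254 and 6202 in siControl, with means of 5173 ± 472 and 6228 ± 36.9 and a ratio of 0.831. No siEZH2 library overlapped the siControl libraries of its line in the total or in any of the 5 classes, but with 2 against 2 libraries no exact permutation test can pass 0.05. The 95% Wilson intervals of these shares, which cover counting error only, spanned at most 0.539% of the share to either side, so the spread between replicates was the larger error. Other RNAs that normally have no poly(A) tail, picked after the shares were seen, differed between these libraries too. In SUM149 RPPH1 took 2254 and 3960 RPM after siEZH2, against 6463 and 4187 in siControl, and RMRP 2989 and 4259.6, against 4976 and 3659.7. TERC took 35.7 and 36.9 RPM after siEZH2 in SUM149, against 69.8 and 37.9 in siControl, and SCARNA2 90.3 and 86.4, against 159 and 89.9. RPPH1 and TERC were lower in both siEZH2 libraries of SUM149 than in both controls, and RMRP and SCARNA2 overlapped. For all 4 siControl replicate 1 of SUM149 was the highest of its line, and without it the histone ratio in SUM149 was 0.841. In MDA-MB-231 the siEZH2 and siControl libraries overlapped for all 4 of these RNAs. Their part in the histone shares was not tested. In bulk samples fewer cells in S phase and less histone mRNA per cell cannot be told apart.

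**Figure D1:**
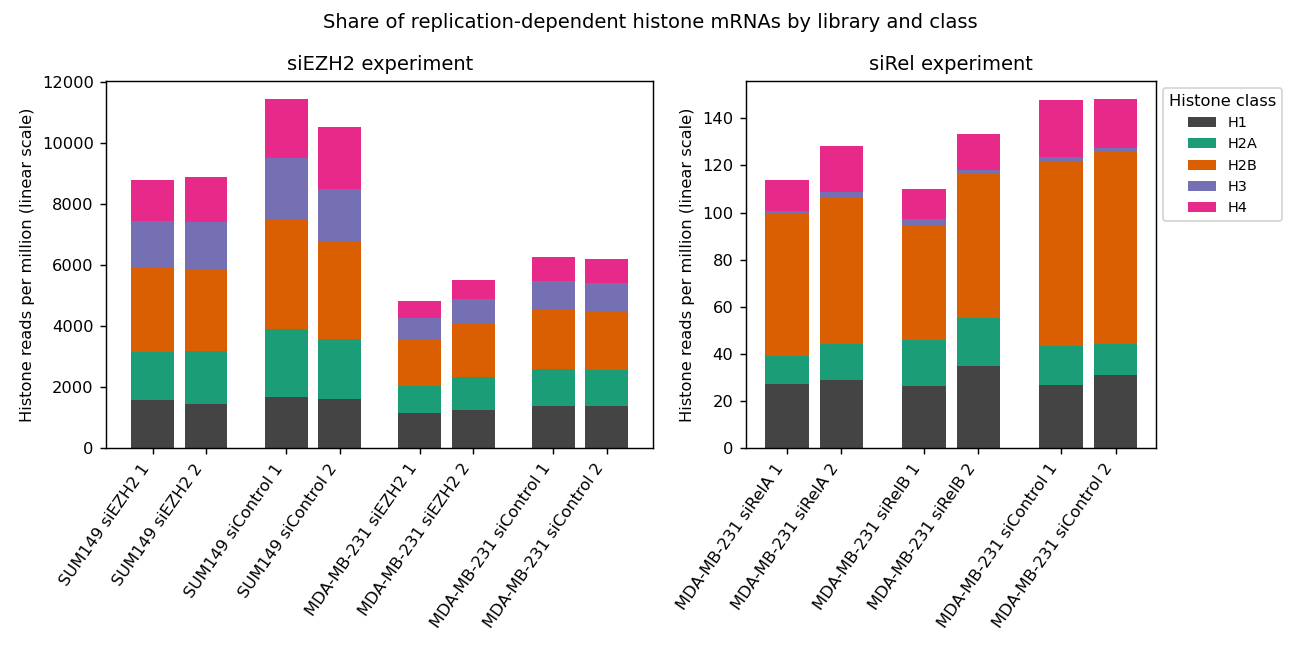
Stacked bars give the RPM, reads per M reads of the library, from each histone class (linear axis, from 0) in every library, with the siEZH2 experiment on the left and the siRel experiment on the right on its own axis. The SUM149 bars stand between 8805 and 11461 RPM, the MDA-MB-231 bars of the same experiment between 4839.6 and 6254, and the siRel bars between 110.0 and 148.4.

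By mean share of reads, the ratio of siEZH2 to siControl was lowest for H4 and highest for H1 in both lines. H4 mRNAs, which encode the least variable core histone, had ratios of siEZH2 to siControl of 0.717 in SUM149 and 0.765 in MDA-MB-231. H3 had ratios of 0.805 and 0.809, H2A 0.788 and 0.840 and H2B 0.810 and 0.837 in the same order of lines. Linker histones had ratios of 0.925 in SUM149 and 0.865 in MDA-MB-231. The order of H1 and H2A in MDA-MB-231 is within the spread between replicates. There H2A took 876 and 1108 RPM after siEZH2, against 1197 and 1164 in siControl, and H1 took 1167 and 1245, against 1400 and 1390. H2B took the largest part of the histone reads in each group of the siEZH2 experiment, 30.7% in SUM149 siEZH2 and 30.6% in SUM149 siControl, and 31.4% in MDA-MB-231 siEZH2 and 31.2% in MDA-MB-231 siControl. H4 took 16.0% in SUM149 siEZH2 and 18.0% in SUM149 siControl, and H1 took 17.2% and 15.0% in those groups. These class ratios are descriptions without a test.

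In SUM149 most members fell after siEZH2 when tested gene by gene. Of 59 tested members 40 fell and 1 rose at adjusted p under 0.05 (limma, Benjamini-Hochberg over all genes tested), beside 28.6% of all genes called down and 29.4% called up in that comparison. The members' median log2 difference was -0.32, against 0.00 over all genes tested. Falls were counted in 12 of 14 H2A, 8 of 10 H4, 12 of 19 H2B, 6 of 11 H3 and 2 of 5 H1 genes. A fit on the SUM149 libraries alone called 39 of 56 members down and 1 up, beside 29.2% and 29.1% of genes, with 47 below 0. Leaving out siControl replicate 1 of SUM149 gave 3 members up in place of 1 and 27 down, the fewest of any library left out.

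Among H4 genes HIST1H4L had the largest fall in SUM149, with 1983 and 2349 normalised reads after siEZH2, against 4825 and 4047 in siControl (-0.95 ± 0.09, limma adjusted p = 1.53e-06). HIST1H4C, the most abundant H4 mRNA, had 5872 and 7548 normalised reads after siEZH2, against 10512 and 12651 in siControl (-0.77 ± 0.10, limma adjusted p = 3.22e-05). HIST1H4D had 5249 and 6107 after siEZH2, against 9507 and 9017 in siControl (-0.68 ± 0.07, limma adjusted p = 3.01e-06). For all 3 genes both siEZH2 libraries lay below both controls, and HIST1H4H did so too, with 6390.4 and 6275 after siEZH2, against 8688 and 9454 in siControl (-0.50 ± 0.06, limma adjusted p = 1.06e-05). HIST1H4A did not pass, at 2920.1 and 2987 normalised reads after siEZH2 and 2920.5 and 2807 in siControl, and neither did HIST4H4.

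Among H2A and H2B genes, whose products pair as dimers, the largest falls in SUM149 were those of the HIST3 genes HIST3H2BB and HIST3H2A. HIST3H2BB had 872 and 727 normalised reads after siEZH2, against 1553 and 1330.5 in siControl (-0.69 ± 0.08, limma adjusted p = 8.19e-06). HIST3H2A had 121 and 175 after siEZH2, against 567 and 190.5 in siControl (-0.66 ± 0.20, limma adjusted p = 0.0121), and siControl replicate 1 alone stood far above the other 3 libraries. HIST1H2AH (-0.59 ± 0.14), HIST1H2AJ (-0.47 ± 0.07) and HIST2H2AC (-0.47 ± 0.09) followed among H2A, and HIST1H2BC (-0.59 ± 0.09), HIST1H2BB (-0.58 ± 0.09) and HIST1H2BJ (-0.57 ± 0.07) among H2B. HIST1H2BK, the most abundant H2B mRNA, had 7878 and 7845 normalised reads after siEZH2, against 12923 and 10022 in siControl (-0.52 ± 0.10, limma adjusted p = 0.000537). HIST1H2BM (-0.40 ± 0.06) and HIST1H2BD (-0.38 ± 0.09) fell as well.

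Among H3 genes in SUM149 the falls were led by HIST2H3D (-0.63 ± 0.18, limma adjusted p = 0.00824), HIST1H3G (-0.47 ± 0.06), HIST1H3A (-0.39 ± 0.07) and HIST1H3B (-0.37 ± 0.07). HIST1H3B, the most abundant H3 mRNA, had 9448 and 9321 normalised reads after siEZH2, against 12771 and 11644 in siControl. HIST2H3D had 697 and 909 after siEZH2, against 1789 and 1034 in siControl, so its SE rests on controls that differ widely. Linker histones did not move together. HIST1H1B, the most abundant of them in SUM149, had 22829.7 and 20555 normalised reads after siEZH2, against 26441 and 26030.3 in siControl (-0.27 ± 0.07, limma adjusted p = 0.00652), and HIST1H1E fell by 0.24 ± 0.09 on the log2 scale. HIST1H1D was the only member called higher, with 3809 and 3592 after siEZH2, against 2618 and 2870.3 in siControl (0.40 ± 0.07, limma adjusted p = 0.000279). HIST1H1C had 8288 and 8320.4 after siEZH2, against 7530.3 and 8007 in siControl, and did not pass.

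In MDA-MB-231 fewer members were called after siEZH2 than in SUM149, and all called members were lower. Of 59 tested members 23 fell and 0 rose (limma, adjusted p under 0.05), beside 27.1% of all genes called down and 29.4% called up, and 26 members had an unadjusted p under 0.05. The median log2 difference was -0.13, against 0.00 over all genes tested. This count includes 20 tested members that are near 0 in MDA-MB-231 and passed the filter through SUM149, none of which was called. In a fit on the MDA-MB-231 libraries alone, which drops them, 26 of 39 members fell, 0 rose and 37 lay below 0, beside 29.0% of genes called down and 31.9% called up, with a median of -0.21. The count depends on single libraries: 11 members fell without siControl replicate 1, 14 without siControl replicate 2 and 11 without siEZH2 replicate 1, against 30 without siEZH2 replicate 2. Without siControl replicate 2 there were 2 called higher and without siEZH2 replicate 1 there was 1.

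HIST1H4C had the largest called fall in MDA-MB-231 on the variance-stabilised log2 scale, which understates the changes of low genes, with 4162 and 4756 normalised reads after siEZH2, against 6422 and 6478 in siControl (-0.51 ± 0.10, limma adjusted p = 0.000933). HIST1H4B (-0.38 ± 0.07), HIST1H4H (-0.31 ± 0.06) and HIST1H4A (-0.20 ± 0.05) were the other H4 genes that fell. HIST1H2AH, an H2A gene, had 3320.2 and 5113 normalised reads after siEZH2, against 5965 and 5745 in siControl (-0.48 ± 0.14, limma adjusted p = 0.00992), with the siEZH2 replicates far apart but both below the controls. HIST2H2BF had 3088 and 3517 after siEZH2, against 4527 and 4634 in siControl (-0.44 ± 0.07, limma adjusted p = 0.000195), HIST1H2BD fell by 0.38 ± 0.09 on the log2 scale and HIST1H2BK by 0.26 ± 0.10. Among H3 genes HIST1H3J (-0.44 ± 0.09), HIST2H3D (-0.44 ± 0.18), HIST1H3A (-0.34 ± 0.07) and HIST1H3B (-0.30 ± 0.07) led. Both linker histone genes expressed in this line fell: HIST1H1E had 12774 and 14296 normalised reads after siEZH2, against 15639 and 16094 in siControl (-0.23 ± 0.09, limma adjusted p = 0.0411), and HIST1H1C had 17814 and 19233 after siEZH2, against 21431 and 20392 in siControl (-0.17 ± 0.06, limma adjusted p = 0.0233). HIST1H2BA, an H2B gene known from testis, had 23.0 and 23.3 normalised reads after siEZH2, against 80.5 and 83.5 in siControl (-0.50 ± 0.09, limma adjusted p = 0.000428). In normalised reads that is 0.283 of siControl, a larger fall than the 0.691 of HIST1H4C.

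**Figure D2:**
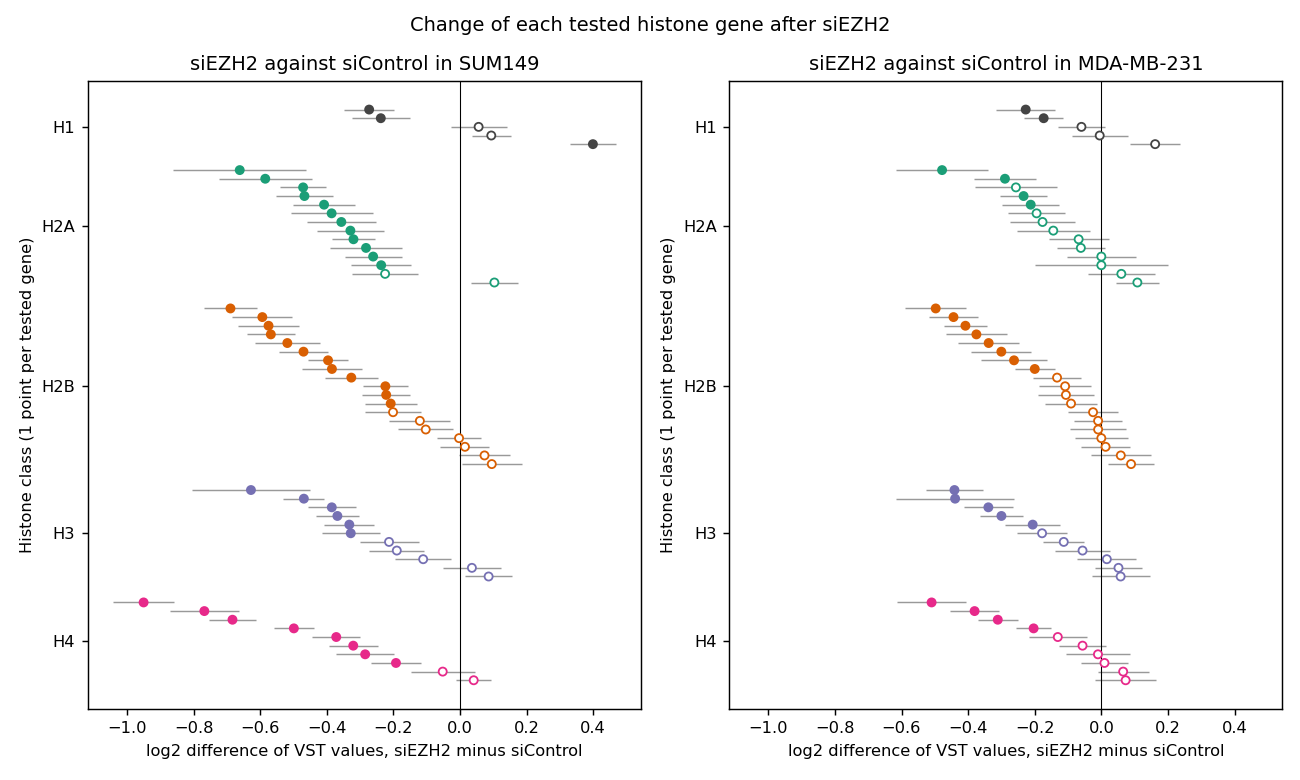
Each point is 1 tested histone gene, placed by its log2 difference of variance-stabilised values (VST, siEZH2 minus siControl, with SE bars) and grouped by class, with SUM149 on the left and MDA-MB-231 on the right. Filled points passed adjusted p under 0.05: 40 lower and 1 higher in SUM149, and 23 lower and 0 higher in MDA-MB-231, where 20 of the points belong to genes near 0 in that line.

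The lines do not share controls, so their calls can be set side by side. The 17 members that fell in both made up 42.5% of the SUM149 list and 73.9% of the MDA-MB-231 list, where 67.8% of all tested members fell in SUM149 and 39.0% in MDA-MB-231. Over all genes the calls shared by both lines were 65.8% of those that fell in SUM149 and 69.3% of those that fell in MDA-MB-231. Among the 36 members that averaged at least 10 reads per library in each of the lines, 28 fell in SUM149 with a median log2 difference of -0.33 and 20 fell in MDA-MB-231 with a median of -0.20, and none rose in either. The difference between the lines was itself tested as an interaction, SUM149 minus MDA-MB-231, in which 5 of 59 members were higher and 10 lower, beside 11.2% and 10.4% of all genes, with a member median of -0.15 against -0.01 over all genes. Of these 15 calls 12 belong to genes with under 10 reads in 1 of the lines, whose effect in that line could not be measured. The 3 others were HIST1H2BJ, which fell more in SUM149 (-0.44 ± 0.10, limma adjusted p = 0.00871), and HIST1H1C (0.27 ± 0.08, limma adjusted p = 0.0373) and HIST1H4A (0.24 ± 0.07, limma adjusted p = 0.0309), whose siEZH2 difference was higher in SUM149. None of these 3 calls held in every alternative. HIST1H1C was lost in 6 of 8 fits without 1 library, with the replicate block (limma adjusted p = 0.0667), without the filter (0.0628) and on log2(x + 1) values (0.0556), HIST1H4A in 6 of 8 fits without 1 library (0.0605 to 0.0967), and HIST1H2BJ in 2 of 8 (0.0545 without siControl replicate 1 of MDA-MB-231 and 0.0508 without siEZH2 replicate 1 of SUM149). The 5 higher calls became 2 without siControl replicate 1 or 2 of MDA-MB-231 or siEZH2 replicate 1 of SUM149, and 3 without siEZH2 replicate 1 of MDA-MB-231 or siEZH2 replicate 2 of SUM149. The 10 lower calls became 5 without siControl replicate 1 of MDA-MB-231.

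Between the siControl libraries of the lines the histone mRNAs differed in amount and in which genes were read. The total share in SUM149 siControl was 1.77 times that in MDA-MB-231 siControl, 2.53 times for H4, 2.05 for H3, 1.78 for H2A, 1.73 for H2B and 1.18 for H1. Of 59 tested members 41 were higher and 9 lower in SUM149 siControl than in MDA-MB-231 siControl (limma, adjusted p under 0.05). Beside this 41.3% and 41.5% of all genes were called, and the member median was 0.81 on the log2 scale. These counts include 20 members near 0 in MDA-MB-231 and 3 near 0 in SUM149. Those passed the filter only through the line where they are high, so their calls are no test, and the median rests partly on them. Among the 36 members with at least 10 reads per library in each line, 21 were higher, 6 were lower and the median was 0.34. The largest of these, HIST1H2BM, had 7851 and 7839 normalised reads in SUM149 siControl, against 748 and 791 in MDA-MB-231 siControl, 10.2 times as many (2.98 ± 0.06, limma adjusted p = 2.56e-14). HIST1H2BE (2.69 ± 0.08), HIST1H2AJ (1.85 ± 0.07), HIST4H4 (1.69 ± 0.10) and HIST1H3A (1.37 ± 0.07) were also higher in SUM149. HIST1H2BB (-0.85 ± 0.09) and HIST1H3C (-0.59 ± 0.08) were lower in SUM149 among core histones, and HIST1H1C (-1.40 ± 0.06) and HIST1H1E (-0.83 ± 0.09) among linker histones.

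Much of the gap between the lines came from genes that were read in only 1 of them. A set of 20 members averaged under 10 reads per library in MDA-MB-231 and over 50 in SUM149. It was chosen after the values were seen and is a description without a test. No gene of the set reached more than 9 reads in any MDA-MB-231 library, and the 20 genes had 0 counts in the 6 MDA-MB-231 libraries of the siRel experiment. They supplied 41.1% and 40.0% of the histone reads in SUM149 siEZH2 libraries and 38.8% and 40.0% in SUM149 siControl libraries. They include HIST1H1A, HIST3H2A, HIST3H2BB and, in the HIST1 cluster, a pair of blocks. HIST1H1B was the most abundant member in SUM149 per kilobase of transcript, at 1153 ± 20.1 RPM per kb in SUM149 siControl, against 0.0811 ± 0.115 in MDA-MB-231 siControl (SD, n = 2).

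The larger block ran from HIST1H4D to HIST1H2BI, at chr6:26188710-26273412 of GRCh38, a stretch of 84.7 kb. Of the 15 members annotated there 13 belonged to the set, and the other two, HIST1H4F and HIST1H4G, had at most 2 reads in any library of either line. Summed over 4 libraries, the 15 genes had 260875 reads in SUM149 and 55 in MDA-MB-231. HIST1H2AE, an H2A gene of this block, had 6630 to 9932 reads in the SUM149 libraries and 0 to 4 in the MDA-MB-231 libraries, and HIST1H3D had 5762 to 7207 against 1 to 3. The genes on either side were read in both lines: HIST1H2BE, just before the block, had 4721 and 3958 normalised reads in SUM149 siControl, against 481 and 443 in MDA-MB-231 siControl, and HIST1H4H, just after it, had 8688 and 9454, against 4721 and 4925. The smaller block, at chr6:27865317-27873534, spans 8.22 kb and holds HIST1H2AL, HIST1H1B, HIST1H3I and HIST1H4L, with at most 9 reads of any of them in an MDA-MB-231 library. Within the set 12 of 20 genes fell and 1 rose after siEZH2 in SUM149, beside 28.6% of all genes called down and 29.4% up. The median of the set was -0.30 on the log2 scale. Of the 36 members read in both lines 28 fell there, with a median of -0.33, so the fall was not particular to the set. In MDA-MB-231 none of the 20 was called, at levels where a change could not be measured. DNA copy number and methylation of these loci were not analysed here.

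**Figure D3:**
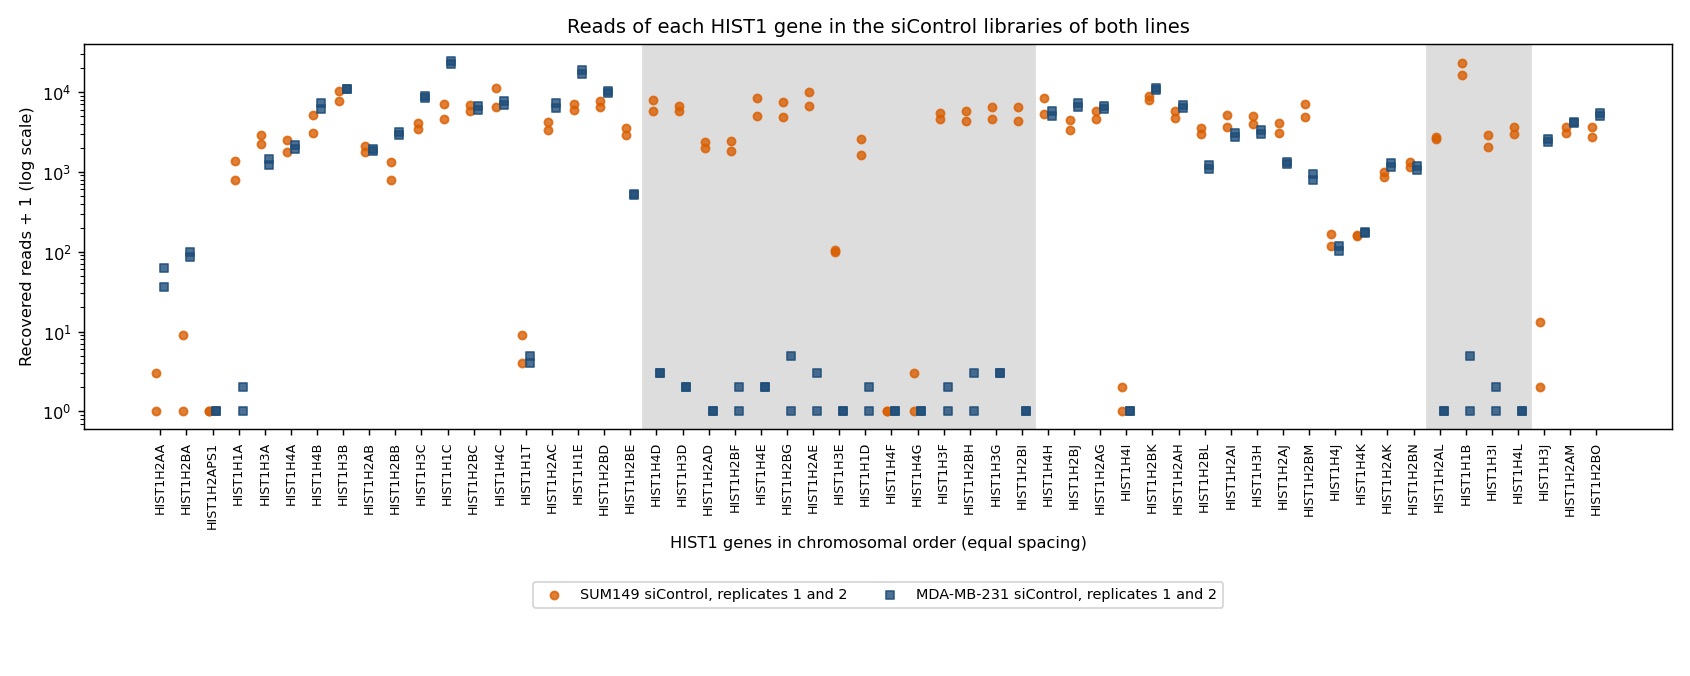
Points give recovered reads + 1 (log axis) of each HIST1 gene in chromosomal order at equal spacing, for SUM149 siControl (circles) and MDA-MB-231 siControl (squares), 2 libraries each. In the shaded blocks from HIST1H4D to HIST1H2BI and from HIST1H2AL to HIST1H4L the MDA-MB-231 points lie at 0 to 4 reads, while most SUM149 points lie far above them, and most genes between and beside the blocks are read in both lines.

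Another 3 members showed the reverse. HIST1H3J, an H3 gene next to the smaller block, had 1602 to 2604 reads in MDA-MB-231 libraries and 1 to 12 in SUM149 libraries. HIST2H2BA, annotated as a pseudogene, had 91 to 217 reads in MDA-MB-231 and at most 1 in SUM149. HIST1H2BA had 24 to 98 in MDA-MB-231 and at most 8 in SUM149. Without these and the 20 genes above, the total shares were 5185 and 5337 RPM in SUM149 siEZH2, 7018 and 6316 in SUM149 siControl, 4776 and 5442 in MDA-MB-231 siEZH2 and 6160 and 6107 in MDA-MB-231 siControl. The control libraries of the lines then differed by 6667 ± 497 against 6133 ± 37.1 RPM (SD, n = 2). The linker histone makeup differed accordingly: HIST1H1B supplied 55.8% of H1 reads in SUM149 siControl and 0.00461% in MDA-MB-231 siControl, where HIST1H1C supplied 56.9% and HIST1H1E 43.1%. In SUM149 siControl HIST1H1C supplied 16.5% and HIST1H1E 18.8%, and HIST1H1D supplied 8.68% in SUM149 siEZH2, against 5.84% in SUM149 siControl.

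By level per length the top gene was the same in both lines for H2B (HIST1H2BK), H3 (HIST1H3B) and H4 (HIST1H4C), and differed for H1 (HIST1H1B in SUM149, HIST1H1C in MDA-MB-231) and H2A. In SUM149 siControl the highest members after HIST1H1B were HIST1H4C at 1001 ± 124, HIST1H3B at 837 ± 60.0 and HIST1H2BK at 812 ± 150 RPM per kb (SD, n = 2), whose order is within the spread between replicates. In MDA-MB-231 siControl the order was HIST1H1C at 1085 ± 31.6, HIST1H1E at 765 ± 20.1, HIST1H2BK at 748 ± 14.0 and HIST1H3B at 715 ± 49.6, of which only HIST1H1C lay outside the spread of its neighbours. The highest H2A genes were HIST1H2AE at 746 ± 10.5 in SUM149 siControl, and HIST1H2AH at 486 ± 10.0 in MDA-MB-231 siControl. Members at the low end included HIST1H1T, the testis linker histone, with at most 9 normalised reads in any library, and HIST2H2BC, with at most 2.9, both in the siEZH2 experiment.

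The upstream sequences of the members were compared by class for short motifs. RefSeq promoters (GRCh38.p14, 250 bases before to 50 after the start) were matched for 65 members, of which 23 overlap the window of another member. The octamer ATGCAAAT, the site of OCT factors described in H2B promoters, was searched on both strands and found in 14 of 18 H2B, 11 of 16 H2A, 1 of 12 H3, 0 of 6 H1 and 0 of 13 H4 promoters, against 1.80% of the 27305 promoters in the table. CCAAT was found in all 52 promoters of H1, H2A, H2B and H3 and in 3 of 13 of H4, against 35.7% of all promoters, and TATAAA in 43 of 65, against 12.0%. The kB consensus site was found in 3 of 65 members, all H4 genes, against 10.8% of all promoters. The 2 promoters below are of H2B genes with the octamer, read in SUM149 only (HIST1H2BG) and in both lines (HIST1H2BK), 5′ to 3′ on the minus strand, with the octamer in capitals as it reads on that strand, ATTTGCAT.
HIST1H2BG: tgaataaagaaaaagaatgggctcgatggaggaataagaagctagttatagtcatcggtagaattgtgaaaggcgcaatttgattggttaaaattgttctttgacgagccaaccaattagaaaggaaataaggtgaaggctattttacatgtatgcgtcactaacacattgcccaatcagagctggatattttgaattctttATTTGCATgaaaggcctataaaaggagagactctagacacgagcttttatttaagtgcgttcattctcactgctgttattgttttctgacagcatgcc
HIST1H2BK: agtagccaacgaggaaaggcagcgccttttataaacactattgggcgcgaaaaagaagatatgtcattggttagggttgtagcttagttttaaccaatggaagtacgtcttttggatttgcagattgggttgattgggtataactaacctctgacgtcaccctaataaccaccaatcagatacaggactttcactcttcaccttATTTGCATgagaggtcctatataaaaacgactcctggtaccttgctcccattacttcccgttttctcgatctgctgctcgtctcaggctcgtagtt
They lie at chr6:26216639-26216938 (HIST1H2BG) and chr6:27146809-27147108 (HIST1H2BK). The octamer was in 8 of 19 promoters of genes restricted to SUM149 and in 18 of 35 promoters of the other members with at least 10 reads per library in MDA-MB-231. TATAAA was in 8 of those 19 and in 29 of those 35, and the median number of CG pairs per window was 8 and 11. These differences were not tested. HIST1H2BG had 7963 and 8512 normalised reads in SUM149 siControl, against 0 and 3.4 in MDA-MB-231 siControl, and HIST1H2BK had 12923 and 10022, against 9939 and 9597. A match is a description of the letters in the window.

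In the siControl of the siRel experiment the 68 matched members took a share about 42.1 times smaller than all 73 in the MDA-MB-231 siControl of the siEZH2 experiment. The unmatched members, HIST1H3B and HIST1H3C among them, count only in the latter, so the ratio over the same genes is smaller. The matched members took 114 and 128 RPM in siRelA, 110.0 and 133 in siRelB and 148 and 148 in siControl (means 121 ± 10.4, 122 ± 16.6 and 148 ± 0.426, SD, n = 2). The RNAs without a poly(A) tail named above differed between the experiments too. RMRP took 2989 to 6146 and RPPH1 2254 to 8790 RPM in the 8 siEZH2 libraries, and RMRP, RPPH1, TERC and SCARNA2 had 0 counts in all 6 siRel libraries. All libraries are labelled as polyA RNA, and what sets the experiments apart was not tested. Among members with at least 10 reads per library in MDA-MB-231, 7 have a transcript with the stem-loop annotated at least 100 bases past it. Over the siRel libraries they had a median of 1.15 counts per M counts (CPM) and a range of 0 to 11.0. The 30 whose stem-loop transcripts end within 20 bases had a median of 0.272 and a range of 0 to 45.1. Transcripts without the loop were not counted, so the 30 include genes with a longer form, such as HIST1H2BD.

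A few genes made up the siRel signal. HIST1H2BK supplied 35.2% of the member counts, HIST1H1C 20.8%, HIST1H4I 10.7%, HIST1H2AC 8.22% and HIST1H2BD 6.31%, together 81.2%. HIST1H3B and HIST1H3C, which were not matched in this table, supplied 71.0% of the H3 reads in MDA-MB-231 siControl of the siEZH2 experiment, so the H3 share given here lacks them. H3, with only 1 tested gene, took 1.70 ± 0.956 CPM in siRelA, 1.94 ± 0.376 in siRelB and 1.75 ± 0.645 in siControl. H2B took 61.2 ± 1.21 CPM in siRelA, 55.1 ± 8.58 in siRelB and 79.6 ± 2.67 in siControl, and H4 took 16.5 ± 4.62, 14.2 ± 1.80 and 22.7 ± 2.22. In H2B and H4 the libraries of both knockdowns lay below the controls. HIST1H4I supplied 13.4 CPM of the H4 share in siRelA, 9.32 in siRelB and 18.4 in siControl. Whether its reads were kept apart from those of HIST1H2BK is not known. Without it H4 took 2.09 and 4.01 CPM in siRelA, 5.05 and 4.66 in siRelB and 4.50 and 4.27 in siControl, so the direction after siRelB turned. H1 overlapped the controls in both knockdowns, and H2A was higher in siRelB, at 19.9 ± 0.606 CPM, than in siControl, at 15.0 ± 2.41. The total without the most abundant member of each class was 27.9 RPM in siRelA, 36.2 in siRelB and 31.9 in siControl, so the lower total in siRelB rests on those members and turns to a higher one without them. The 95% Wilson intervals of the totals spanned 3.29% to 4.33% of the share to either side, and those of H3 27.2% to 39.9%.

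After siRelA 2 of 19 tested members fell and 0 rose (edgeR quasi-likelihood test, Benjamini-Hochberg adjusted p under 0.05), beside 10.2% and 8.82% of all genes, and 6 members had an unadjusted p under 0.05. The member median was -0.34, against 0.02 over all genes. HIST1H2BK had 1077 and 981 counts in siRelA libraries, against 1381 and 1417 in siControl (-0.47 ± 0.12, edgeR adjusted p = 0.0112). HIST1H2BD had 108 and 134 counts in siRelA, against 233 and 196 in siControl (-0.84 ± 0.22, edgeR adjusted p = 0.0113). Both siRelA libraries lay below both controls for each of these H2B genes, but neither call was stable to leaving out libraries. HIST1H2BK had an adjusted p of 0.0850 without siControl replicate 2, and HIST1H2BD an adjusted p of 0.103 without siControl replicate 1 and 0.0979 without siRelA replicate 1. The number of members that fell was 1 without siControl replicate 1, siControl replicate 2 or siRelA replicate 1, and 4 without siRelA replicate 2, siRelB replicate 1 or siRelB replicate 2.

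After siRelB 2 of 19 members fell and 0 rose, beside 10.8% and 7.45% of all genes, with 5 at an unadjusted p under 0.05 and a member median of 0.03 against 0.01 over all genes. HIST1H2BK had 507 and 690 counts in siRelB libraries, against 1381 and 1417 in siControl (-0.98 ± 0.12, edgeR adjusted p = 3.38e-05), or 31.1 ± 5.45 CPM against 59.3 ± 2.56 (SD, n = 2). HIST1H4I had 146 and 213 counts in siRelB, against 476 and 392 in siControl (-1.03 ± 0.20, edgeR adjusted p = 0.00176). Both kept adjusted p under 0.05 whichever library was left out. In RefSeq the gene of HIST1H2BK spans HIST1H4I on the opposite strand. In GENCODE these genes do not overlap, at chr6:27146361-27146855 (HIST1H2BK) and chr6:27139282-27139678 (HIST1H4I). No source used here gives the strand setting of the counting, so whether their reads were kept apart is not known. HIST1H4I had at most 1.6 normalised reads in every library of the siEZH2 experiment. Without siRelA replicate 2, or without siRelB replicate 2, 1 member rose.

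Set against each other, siRelA and siRelB differed in 3 of 19 members, 1 higher and 2 lower in siRelA, beside 16.0% and 14.0% of all genes. HIST1H2BK was higher in siRelA, at 1077 and 981 counts, than in siRelB, at 507 and 690 (0.51 ± 0.12, edgeR adjusted p = 0.00481). HIST1H2AC was lower, with 187 and 182 counts in siRelA against 301 and 263 in siRelB (-0.88 ± 0.19, edgeR adjusted p = 0.00177), and HIST1H2BD too, with 108 and 134 against 188 and 227 (-1.04 ± 0.22, edgeR adjusted p = 0.00166). The HIST1H2BK call was lost without siRelB replicate 1 (edgeR adjusted p = 0.0909), where 0 members were higher, and 2 were higher without siRelA replicate 1 or siRelB replicate 2. HIST1H1C, the most abundant linker histone here, had 593 and 595 counts in siRelA, 464 and 649 in siRelB and 597 and 678 in siControl and passed in no comparison. HIST1H1E (25 to 69 counts per library), HIST2H2AC (19 to 75), HIST1H3H (14 to 39) and HIST1H4H (20 to 85) had SEs of 0.43 to 0.61 on the log2 scale, wider than most of the differences called in the siEZH2 experiment, and none passed.

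**Figure D4:**
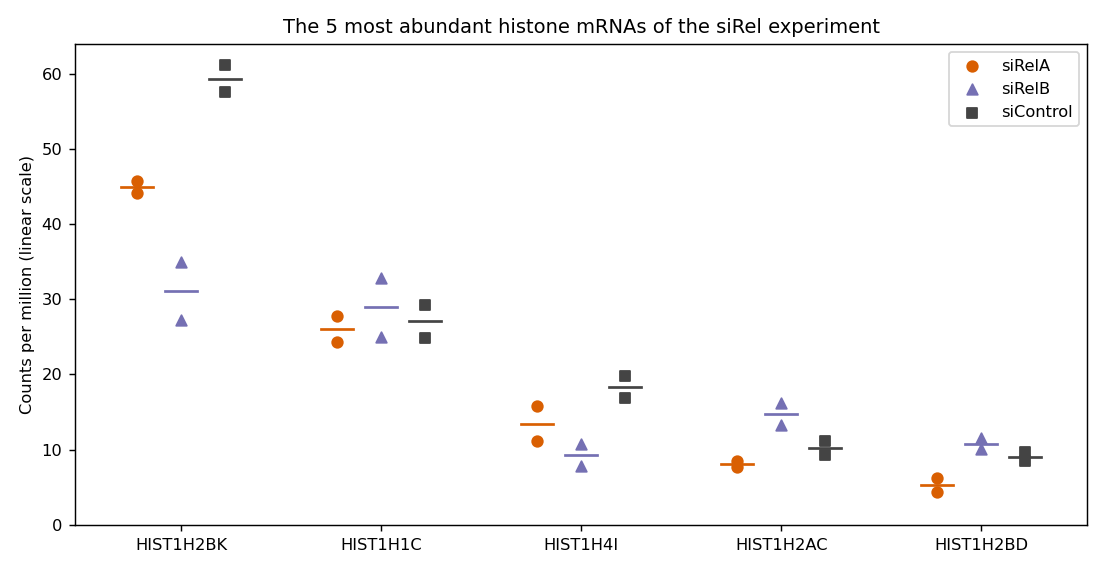
Points give CPM (linear axis from 0) of the 5 most abundant members in each library of the siRel experiment, with siRelA (circles), siRelB (triangles) and siControl (squares), and lines at the mean of 2 libraries. HIST1H2BK averaged 44.9 CPM in siRelA, 31.1 in siRelB and 59.3 in siControl, and its libraries do not overlap between groups, whereas those of HIST1H1C do.

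Genes that act on histone mRNAs were read from lists chosen with earlier results of these data known. Their counts stand beside 28.6% of all genes called down and 29.4% up after siEZH2 in SUM149, 27.1% and 29.4% in MDA-MB-231, 10.2% and 8.82% after siRelA and 10.8% and 7.45% after siRelB. Of 19 genes for histone transcription and 3′ processing 10 fell and 0 rose after siEZH2 in SUM149, and 9 fell and 1 rose in MDA-MB-231. SLBP, the stem-loop binding protein, fell by 0.14 ± 0.06 on the log2 scale in SUM149 (limma adjusted p = 0.0415) and by 0.34 ± 0.06 in MDA-MB-231 (limma adjusted p = 0.000206). NPAT, the coactivator of histone genes, had 1889 and 1838 normalised reads after siEZH2 in SUM149, against 2235 and 2273 in siControl (-0.24 ± 0.05, limma adjusted p = 0.00173). In MDA-MB-231 it had 2468 and 2364 after siEZH2, against 3690 and 3419 in siControl (-0.51 ± 0.05, limma adjusted p = 3.75e-06). NCBP2, a subunit of the cap-binding complex, fell by 0.86 ± 0.06 in SUM149 and 0.79 ± 0.06 in MDA-MB-231, CDK2 by 0.67 ± 0.06 and 0.97 ± 0.06, and ZNF473, a component of the processing complex, by 0.64 ± 0.05 and 0.76 ± 0.05. LSM11, a U7 snRNP protein, fell by 0.89 ± 0.07 in MDA-MB-231, where NELFE rose (0.22 ± 0.06). CASP8AP2 did not pass in either line (-0.13 ± 0.06 in SUM149 and -0.15 ± 0.06 in MDA-MB-231).

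In the siRel experiment the same list had 6 genes that fell and 1 that rose after siRelA, and 0 that fell and 1 that rose after siRelB. CDK2 (-1.44 ± 0.12), LSM11 (-0.62 ± 0.16) and CSTF2 (-0.55 ± 0.11) led the falls after siRelA, E2F1 rose (0.36 ± 0.10), and NPAT had 859 and 688 counts in siRelA, against 911 and 1063 in siControl (-0.38 ± 0.12, edgeR adjusted p = 0.0339). The NPAT call was lost without siControl replicate 2 (edgeR adjusted p = 0.343) or siRelA replicate 2 (edgeR adjusted p = 0.151). CASP8AP2 did not pass after siRelA (0.35 ± 0.16), except without siControl replicate 2 (edgeR adjusted p = 0.0470). After siRelB CSTF2T rose (0.61 ± 0.11), and NPAT (0.15 ± 0.12) and SLBP (-0.10 ± 0.09) did not pass. Between the lines SLBP was higher (0.23 ± 0.06) and NPAT lower (-0.60 ± 0.05) in SUM149 siControl than in MDA-MB-231 siControl.

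Of 12 genes for histone mRNA decay 3 fell and 6 rose after siEZH2 in SUM149, beside 28.6% of all genes down and 29.4% up, and 2 fell and 4 rose in MDA-MB-231, beside 27.1% and 29.4%. The nuclease ERI1, which trims the stem-loop end, fell by 0.22 ± 0.05 on the log2 scale in SUM149 and 0.14 ± 0.05 in MDA-MB-231, the helicase UPF1 by 0.65 ± 0.06 and 0.75 ± 0.06, while the exonuclease XRN1 rose in both (0.57 ± 0.06 and 0.41 ± 0.06). None of the 12 passed after siRelA or siRelB (edgeR), where ERI1 had -0.13 ± 0.10 and 0.05 ± 0.10. Of 12 genes for polyadenylation and the choice of its site 7 fell and 0 rose after siEZH2 in each line, led by NUDT21 (-1.27 ± 0.06 in SUM149 and -1.26 ± 0.06 in MDA-MB-231) and CLP1 (-0.66 ± 0.07 and -0.86 ± 0.07). After siRelA 5 of the 12 fell and 0 rose, beside 10.2% and 8.82% of all genes, again with NUDT21 (-0.77 ± 0.09), and after siRelB none was called. Their part in the members' changes was not tested.

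S phase genes were called in both directions. Of 26 such genes 12 fell and 4 rose after siEZH2 in SUM149, beside 28.6% and 29.4% of all genes, and 18 fell and 3 rose in MDA-MB-231, beside 27.1% and 29.4%, with medians of -0.08 and -0.26 on the log2 scale. In the interaction, SUM149 minus MDA-MB-231, 7 of the 26 were higher and 1 lower, beside 11.2% and 10.4% of all genes. MCM3, of the replicative helicase, fell by 0.80 ± 0.06 in SUM149 and 1.10 ± 0.06 in MDA-MB-231, and POLA1, of DNA polymerase alpha, by 0.87 ± 0.06 and 1.09 ± 0.06, whereas GINS1 (0.86 ± 0.06 and 0.99 ± 0.06) and PCNA (0.39 ± 0.07 and 0.41 ± 0.07) rose. After siRelA 9 fell and 6 rose, with CCNE2 (1.501 ± 0.14) and E2F2 (1.17 ± 0.18) up and MCM2 (-0.52 ± 0.09) down, and after siRelB 3 fell and 5 rose, beside 10.2% down and 8.82% up of all genes after siRelA and 10.8% and 7.45% after siRelB. Between the lines 17 were higher and 7 lower in SUM149 siControl than in MDA-MB-231 siControl, beside 41.3% and 41.5% of all genes. The share of cells in S phase was not measured in the files used here, and its part in the members' changes was not tested.

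Genes listed as replication-independent histones, most of which have mRNAs with ordinary poly(A) tails, were called in both directions. Of the 10 tested 3 fell and 1 rose after siEZH2 in SUM149, beside 28.6% and 29.4% of all genes, and 5 fell and 2 rose in MDA-MB-231, beside 27.1% and 29.4%. H2AFJ, an H2A variant gene, rose in both lines (0.65 ± 0.08 in SUM149 and 0.31 ± 0.08 in MDA-MB-231), while CENPA, the centromeric H3, fell (-0.39 ± 0.07 and -0.30 ± 0.07) and H2AFZ fell too (-0.21 ± 0.07 and -0.25 ± 0.07). After siRelA H2AFX rose (0.62 ± 0.08) and H3F3A fell (-0.45 ± 0.08), and after siRelB H2AFX (0.52 ± 0.08) and H2AFV (0.39 ± 0.08) rose. Of 19 histone chaperone genes 9 fell and 2 rose after siEZH2 in SUM149, and 12 fell and 2 rose in MDA-MB-231. ASF1A, a chaperone for H3 and H4, rose in both lines (0.61 ± 0.06 and 1.24 ± 0.06), and NAP1L1, a chaperone for H2A and H2B, fell (-0.40 ± 0.07 and -0.49 ± 0.07). After siRelA 3 chaperone genes fell and 2 rose, beside 10.2% and 8.82% of all genes, and after siRelB 2 fell and 3 rose, beside 10.8% and 7.45%.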

How the data were processed

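The siRel table holds raw counts per Ensembl gene deposited by the authors, made with HISAT2 2.0.5 and featureCounts 1.5.0-p3 per the submitters' processing notes, which also name DESeq2 1.20.0. The siEZH2 table holds variance-stabilised log2 values deposited by the authors, with STAR 2.5.2b, cutadapt, Salmon and DESeq2 named in the submitters' processing notes; both used hg19. Its floor is 7.12, and differences on this scale understate changes of low genes. Normalised reads and recovered reads were computed by inverting the transformation. Only 66.1% of 42894 values up to 100 reads came out whole within 0.05, so they are approximate. Counts were tested with edgeR 4.0.16 (quasi-likelihood, TMM, filterByExpr) in 1 fit of 6 libraries, and log2 values with limma 3.58.1 (trend) in 1 fit of 8 libraries on genes whose value exceeded the table's lowest by 1 or more in 2 libraries or more, in R 4.3.3; p-values were Benjamini-Hochberg adjusted over all genes tested, with a threshold of 0.05. Both fits were tested on simulated data. The design calls the replicates biological, without naming separate cultures, so p-values measure the spread between these libraries. Intervals cover counting error only. Named genes were the 2 most abundant members of each class and the members and list genes with the largest called changes; others named were picked after their values were seen. The members and lists were chosen with earlier results of these data known. Transcripts came from GENCODE 44 and promoters from RefSeq, both GRCh38, and no coordinate was converted from hg19. Alternatives changed the filter, scaling, test, replicate block and libraries.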

Additional observations from a re-analysis of the deposited data

Results flagged for a closer look

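The interaction (SUM149 minus MDA-MB-231, log2 scale, limma adjusted p under 0.05) called 15 members. Of these 12 passed the filter only through the line where they are high, so their calls are no test of a difference between the lines. The interaction value was negative for HIST1H4L (-1.02), HIST1H4D (-0.69), HIST3H2BB (-0.69), HIST1H2BJ (-0.44), HIST1H1B (-0.43), HIST1H2AE (-0.43), HIST1H3D (-0.39), HIST1H3G (-0.36), HIST1H4E (-0.32) and HIST1H2BI (-0.31). It was positive for HIST1H3J (0.48), HIST1H1D (0.46), HIST2H2BA (0.40), HIST1H1C (0.27) and HIST1H4A (0.24). HIST1H2BJ, HIST1H1C and HIST1H4A had at least 10 reads per library in both lines, and their calls were lost in 2, 6 and 6 of the 8 fits without 1 library. HIST1H1C also lost its call with the replicate block, without the filter and on log2(x + 1) values. The other 12 had fewer in 1 line, where the effect could not be measured.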

How the results depend on the processing

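Whether the replicate numbers pair the samples is not known, and weak correlations of their deviations do not settle it. These were -0.010, -0.025 and 0.048 in the siRel experiment, 0.088 in MDA-MB-231, -0.117 in SUM149 and -0.207 to -0.005 between groups of different lines. With the numbers as a replicate block 0 members rose and 3 fell after siRelA, and 0 and 2 after siRelB. The block gave 1 and 24 in MDA-MB-231 given siEZH2 and 1 and 43 in SUM149 given siEZH2. In the interaction it gave 5 and 11, and HIST1H1C lost its call (limma adjusted p = 0.0667). The crossed pairing of SUM149, added after seeing the data, gave 1 and 42. No block was run for the line contrast. Without the filter 4 members fell after siRelA, 1 rose after siRelB and 2 were higher in siRelA than in siRelB; with only the compared libraries 1 rose after siRelB. On log2(x + 1) recovered values siEZH2 gave 3 members higher in MDA-MB-231 cells and 0 in SUM149, and the interaction had 1 higher and 4 lower; edgeR on recovered reads gave 2 and 1. There the interaction reversed for HIST1H3G (0.61 and 1.40 with these tests) and HIST1H4E (0.059 and 0.58), both under 10 reads in MDA-MB-231; the cause was not tested. Shares without near-identical members were 8542 RPM in SUM149 siEZH2, 6078 in MDA-MB-231 siControl and 147 in siRel siControl. Without the most abundant member of each class they were 7508 in SUM149 siEZH2, 9240.8 in SUM149 siControl, 3530.0 in MDA-MB-231 siEZH2, 4237 in its siControl, 27.9 in siRelA, 36.2 in siRelB and 31.9 in siRel siControl. Without mitochondrial genes siRel siControl had 154; this was not run on the siEZH2 table, which was used without them. Leaving out 1 library at a time, 0 to 0 members rose and 1 to 4 fell after siRelA, 0 to 1 and 2 to 3 after siRelB, 0 to 2 were higher and 2 to 3 lower in siRelA than siRelB, 0 to 2 rose and 11 to 30 fell in MDA-MB-231 given siEZH2, 1 to 3 and 27 to 44 in SUM149 given it, 2 to 5 were higher and 5 to 15 lower in the interaction, and 38 to 45 and 6 to 12 between the lines. Over all results and alternatives, 1585 values kept direction and side of the threshold, or stayed within the allowed range, 143 lost significance, 41 moved, 4 gained it and 4 reversed. The H4 share without HIST1H4I averaged 3.05 CPM in siRelA, 4.86 in siRelB and 4.38 in siControl. Depth limits the siRel members, with 2046 to 3550 member counts per library.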
